A study of Oryctolagus cuniculus with 39 samples.

Results

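Whole interscapular fat of the rabbit was compared between 12 weeks and 6 weeks of age, the last interval of a series that followed this depot from day 1 through 3, 6 and 12 weeks. All libraries came from New Zealand White rabbits and from the labelled interscapular brown adipose tissue, taken as total tissue with no separation of its cells. Each age had 3 libraries. The labels name no treatment, genotype or sex, and they do not say whether the 3 libraries of an age came from 3 animals or from pools. The p-values below therefore measure the spread between these samples, which may be technical. Of the 20183 genes in the deposited table, 12181 reached an FPKM of 1 in 3 or more of the 6 libraries and were tested. FPKM is the number of fragments scaled to the length of the transcript and to the number of fragments mapped in that library. The question of the comparison is what still changes in the depot after it has turned white.

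Brown fat burns fatty acids for heat through UCP1, a proton channel of the inner mitochondrial membrane. In some mammals the interscapular depot loses this programme after birth and fills with large fat droplets, a process called whitening. White fat cells store triglyceride, which they take up from the blood or build from glucose by fatty acid synthesis (lipogenesis). The transcription factor SREBP1, the product of SREBF1, drives genes of fatty acid synthesis, and SREBP2, the product of SREBF2, drives genes of cholesterol synthesis. Between the fat cells lie a collagen-rich matrix made largely by fibroblast-like progenitors, vessels, macrophages and nerves.

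The libraries were checked against defining markers of the labelled tissue. UCP1 averaged 5348 FPKM at day 1, against 22.4, 2.08 and 1.69 FPKM in the 3 libraries of 6 weeks and 4.16, 4.21 and 0.44 FPKM in those of 12 weeks. DIO2, the enzyme that activates thyroid hormone in brown fat, was at most 0.36 FPKM in all 6 libraries. CIDEA, on the list of brown fat genes and on that of fat droplets, was not low. It was at 1278, 1294 and 1390 FPKM at 6 weeks and at 1507, 1528 and 1799 FPKM at 12 weeks, against a day 1 mean of 819.6 FPKM. ADIPOQ, the fat cell hormone adiponectin, was at 4264, 4102 and 5200 FPKM at 6 weeks and at 5368, 5680 and 5498 FPKM at 12 weeks, against a mean of 528.9 FPKM at day 1. The 6 libraries were thus high in a general fat cell marker and low in the defining brown one, which was highest in 6 weeks replicate 1.

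One library lay nearer to the other age than its age mates did, and the results below are given with this in view. Across genes on the log2(FPKM + 1) scale, 6 weeks replicate 3 correlated with 6 weeks replicates 1 and 2 at 0.945 and 0.968. With the 12 weeks libraries it correlated at 0.964 to 0.977. Other pairs of the same age ran from 0.968 to 0.977, and other pairs between ages from 0.932 to 0.961. The pair of 6 weeks replicates 2 and 3 was thus within the range of its kind. At the other end, 6 weeks replicate 1 correlated with the 12 weeks libraries at only 0.932 to 0.95. On the first principal component, which held 47% of the variance, 6 weeks replicates 1 and 2 lay at −43.05 and −22.47, 6 weeks replicate 3 at 10.79, and the 12 weeks libraries at 27.24, 23.25 and 4.23. Among 568 genes that differed by at least 1 on the log2 scale between the first 2 libraries of 6 weeks and the mean of 12 weeks, 408 (71.8%) were closer to the 12 weeks mean in replicate 3. This share alone cannot set replicate 3 apart, because a library outside the choice of genes tends toward the other age. The same count was not made with replicate 1 or 2 held out. Relative depth, estimated from the FPKM values, ran from 1.37 to 1.546 at 6 weeks and from 1.365 to 1.377 at 12 weeks, so depth hardly differed between the ages.

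**Figure D1:**
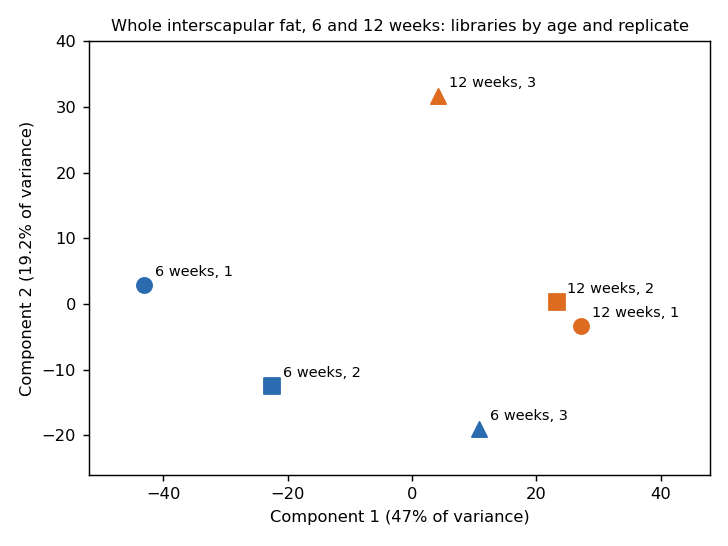
Position of the 6 libraries on the first 2 principal components of the log2(FPKM + 1) values of the tested genes (both axes in component scores, with the share of variance in percent). The age groups separate along component 1 except for 6 weeks replicate 3 at 10.79, which lies among the 12 weeks libraries (4.23 to 27.24), while 12 weeks replicate 3 stands off along component 2.

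Few genes passed the test between 6 and 12 weeks. In limma's moderated test with Benjamini-Hochberg adjustment, 32 of 12181 genes (0.263%) had an adjusted p under 0.05. Of these, 21 were higher (0.172%) and 11 lower (0.0903%) at 12 weeks. With so few genes called, a list below with no called gene is not set apart from all genes. At an unadjusted p under 0.05 there were 1941 genes (15.9%), 880 higher (7.22%) and 1061 lower (8.71%). Without 6 weeks replicate 3 the count of called genes was 552 (4.53%), 318 higher (2.61%) and 234 lower (1.92%), and all 32 genes were among them. Leaving out another library lowered the count instead, to 5 and 6 when 6 weeks replicate 1 or 2 was absent, and to 7, 27 and 6 when 12 weeks replicate 1, 2 or 3 was. The choice of 6 weeks replicate 3 came from these same data, where its values lay toward 12 weeks. Leaving it out tends to widen the contrast. Calls gained without it, here and in the lists below, are thus no separate support. The values of the ages did not overlap for 987 genes upward (8.1%) and 1332 downward (10.9%). The number of called genes thus moved widely with the libraries compared, while the median log2 difference over all tested genes was −0.033 with all libraries and −0.031 without 6 weeks replicate 3.

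The genes that rose included SQLE of cholesterol synthesis and 2 regulators of fatty acid synthesis, SREBF1 and MID1IP1. SQLE, which makes the epoxide of squalene in cholesterol synthesis, was at 7.2, 7.59 and 19.9 FPKM at 6 weeks and at 55.5, 34.3 and 61.1 FPKM at 12 weeks. All 3 later values lay above all 3 earlier ones, and the highest 6 weeks value was that of replicate 3. SQLE rose by 2.13 (SE 0.34, adjusted p = 0.0369).

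The other genes of that pathway lay in the same direction. Of 23 tested genes of cholesterol synthesis and uptake, 22 had a positive difference. SQLE was among the 2 that were called, both higher, against 0.172% of all genes. An unadjusted p under 0.05 was reached by 15 in the upward direction and by none in the downward one, against 7.22% and 8.71% of all genes. Their median log2 difference was 0.925, and it stayed between 0.599 and 1.305 when any 1 library was left out. Without 6 weeks replicate 3, 15 of the 23 were called higher, against 2.61% of all genes. None was called without 6 weeks replicate 1, 6 weeks replicate 2, 12 weeks replicate 1 or 12 weeks replicate 3, nor with only the 2 ages in the fit. The summed FPKM of the 23 genes was 754.3, 809.7 and 1772 at 6 weeks, and 2704, 1666 and 2243 at 12 weeks. The sum of 6 weeks replicate 3 thus exceeded that of 12 weeks replicate 2, and at day 1 the sums were 403.8, 384.1 and 306.8.

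In single members too, 6 weeks replicate 3 was the highest library of its age. HMGCS1, an early enzyme of the pathway, was at 11.6, 13.5 and 45.0 FPKM and then at 81.2, 48.7 and 76.0 FPKM (log2 difference 1.74, SE 0.40, adjusted p = 0.107). STARD4, a carrier of cholesterol inside the cell, was at 21.6, 20.7 and 63.8 FPKM and then at 153.6, 61.3 and 115.1 FPKM (1.71, SE 0.42, adjusted p = 0.125). Both missed the threshold with all libraries, with 6 weeks replicate 3 about as high as the lowest 12 weeks library. Not every member of the list differed: SREBF2 itself was at 12.2, 8.80 and 9.71 FPKM and then at 11.2, 9.20 and 14.5 FPKM (0.16, adjusted p = 0.686), and ABCG1, an exporter of cholesterol, had a difference of −0.0046. These last 2 genes were picked after their values were seen, as members with small differences.

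**Figure D2:**
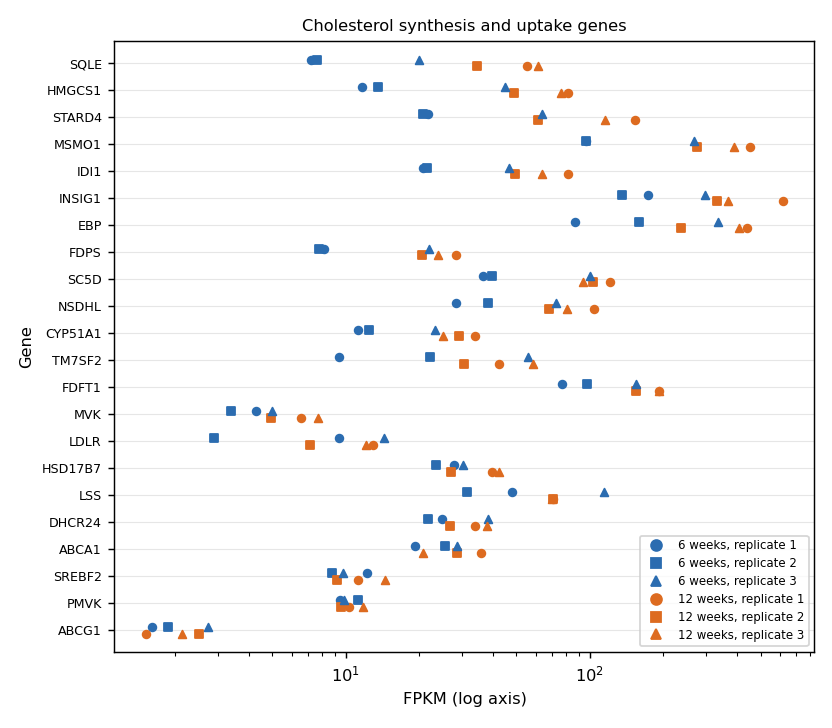
FPKM (log axis) of 22 tested genes of the cholesterol list in the 3 libraries of 6 weeks (blue) and the 3 of 12 weeks (orange), with marker shape giving the replicate, ordered by log2 difference. For SQLE the 12 weeks values all lie to the right of the 6 weeks values, and 6 weeks replicate 3 (blue triangles) lies between the ages for many genes.

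Among genes of fatty acid synthesis, 2 of 22 tested were called, both higher, against 0.172% of all genes. SREBF1 was at 33.6, 25.1 and 33.8 FPKM at 6 weeks and at 65.8, 56.0 and 84.1 FPKM at 12 weeks, with no overlap, and rose by 1.12 on the log2 scale (SE 0.20, adjusted p = 0.0482). MID1IP1, a protein that promotes the assembly of acetyl-CoA carboxylase into its active form, was at 32.3, 31.3 and 64.2 FPKM and then at 168.6, 99.0 and 196.9 FPKM. It rose by 1.86 (SE 0.30, adjusted p = 0.0382), from a day 1 mean of only 0.877 FPKM. It is also a member of the adipocyte list. Both genes were thus higher in all later libraries, MID1IP1 with 6 weeks replicate 3 above its age mates.

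Over the 22 genes, 20 had a positive difference, and 15 reached an unadjusted p under 0.05 upward (7.22% of all genes) and none downward. The median was 0.71, and 0.526 to 0.969 when any 1 library was left out. The highest of these values was that without 6 weeks replicate 3. Without that library 10 were called, all higher, against 2.61% of all genes. None was called when any of 6 weeks replicates 1 and 2 and 12 weeks replicates 1 and 3 was left out, with only the 2 ages in the fit, with a pseudocount of 0.1, or with no filter on low FPKM. ACACA, acetyl-CoA carboxylase, which commits acetyl-CoA to fatty acid synthesis, was at 37.7, 44.2 and 74.0 FPKM and then at 148.6, 74.7 and 105.3 FPKM (1.07, SE 0.32, adjusted p = 0.161). ME1, malic enzyme, a source of NADPH for the synthesis, was at 15.6, 23.8 and 43.1 FPKM and then at 111.6, 48.2 and 81.4 FPKM (1.55, adjusted p = 0.128). GPAM, which starts glycerolipid assembly, was at 31.1, 58.2 and 133.9 FPKM and then at 206.2, 144.0 and 181.5 FPKM (1.47, adjusted p = 0.164). In these 3 genes the ages did not overlap, and 6 weeks replicate 3 was the highest library of its age, close below the lowest of 12 weeks. FASN and SCD, fatty acid synthase and stearoyl-CoA desaturase, were not found by symbol and are not analysed here under those names. LOC100346046, which is annotated as an acyl-CoA desaturase-like gene and is among the 10 most abundant genes, was at 927.4, 1904 and 2683 FPKM and then at 4898, 3690 and 3626 FPKM. Its difference of 1.26 (SE 0.58) did not pass (adjusted p = 0.314), and its day 1 mean was 7.81 FPKM.

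General fat cell genes were less uniform. Of 26 tested, MID1IP1 was the only member called, while 0.172% of all genes were called higher. A positive difference was found in 18, and 8 were higher and 3 lower at an unadjusted p under 0.05, against 7.22% and 8.71% of all genes. Without 6 weeks replicate 3, 5 were called higher and 1 lower, against 2.61% and 1.92% of all genes. None was called without 6 weeks replicate 1 or 2, or without 12 weeks replicate 1 or 3. FABP4, the fatty acid carrier and the most abundant gene of the table at these ages, was at 16604, 21612 and 25363 FPKM and then at 18484, 28341 and 18904 FPKM, a difference of 0.04 (adjusted p = 0.964). LPL, the lipase that frees fatty acids from blood lipoproteins, was at 3708, 4526 and 6532 FPKM and then at 7384, 5779 and 5952 FPKM (0.40, adjusted p = 0.454). For both of these very abundant genes the ages overlapped. FABP7, a fatty acid carrier best known from brain, was at 367.5, 478.2 and 1168 FPKM and then at 2129, 1307 and 1942 FPKM (1.57, SE 0.55, adjusted p = 0.222), with a day 1 mean of 16.8 FPKM. LGALS12, a galectin of fat droplets, had the opposite sign, with 85.2, 65.2 and 49.3 FPKM and then 27.4, 34.0 and 34.6 FPKM (−1.01, SE 0.19, adjusted p = 0.0575). The summed FPKM of the adipocyte markers ran from 32500 to 48900 at 6 weeks and from 43300 to 53600 at 12 weeks, which overlap. Much of this sum is FABP4, so it says little about the other markers. Singly, 10 of the 26 were higher and 2 lower without overlap, against 8.1% and 10.9% of all genes. In whole tissue, fewer cells of a type and less RNA per cell cannot be told apart, and the part of the adipocyte share in the rise of the lipid genes was not tested.

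Brown fat genes showed no called difference. None of 26 tested thermogenic genes passed, but only 0.263% of all genes did, so the lack of calls does not set this list apart. There were 11 positive differences and a median of −0.177. Over the 15 genes that passed an FPKM filter of 5 the median was 0.007. At an unadjusted p under 0.05, 1 was higher and 4 were lower, against 7.22% and 8.71% of all genes, and none was called without 6 weeks replicate 3. COX7A1, a muscle and brown fat subunit of cytochrome oxidase, was at 27.4, 17.5 and 29.1 FPKM and then at 16.5, 9.70 and 14.9 FPKM (−0.80, SE 0.25, adjusted p = 0.176), down from a day 1 mean of 423 FPKM. CPT1B, which carries fatty acids into mitochondria in muscle and brown fat, was at 22.5, 15.2 and 23.7 FPKM and then at 12.8, 9.03 and 12.0 FPKM (−0.80, SE 0.20, adjusted p = 0.131). The ages did not overlap for either gene. SLC6A8, the creatine transporter, had the other sign, with 15.9, 13.6 and 16.2 FPKM and then 21.3, 31.5 and 51.9 FPKM (1.06, SE 0.31, adjusted p = 0.158). PDK4, a kinase that holds back glucose oxidation and belongs to the fatty acid oxidation list, was at 257.6, 113.8 and 162.7 FPKM and then at 39.3, 75.6 and 46.1 FPKM (−1.69, SE 0.39, adjusted p = 0.107). None of the 23 tested genes of that list was called with all libraries or without 6 weeks replicate 3, against 0.263% and 4.53% of all genes.

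Nuclear genes of oxidative phosphorylation had small differences of the same sign. None of 34 was called, yet all 34 were positive as deposited, with a median of 0.308, against 5509 positive among all 12181 genes. With ADORA1 and LOC100009266 left out and libraries scaled to equal FPKM sums, 33 were positive. At least 32 were positive when any 1 library was left out. An unadjusted p under 0.05 was reached by 4, all upward, against 7.22% of all genes. The summed FPKM of the list was 5724, 6852 and 9831 at 6 weeks and 9306, 9358 and 8645 at 12 weeks, so that 6 weeks replicate 3 held the highest value of all 6. Without it the median was 0.506 and 4 genes were called higher, against 2.61% of all genes. Without 6 weeks replicate 1, which had the lowest sum, the median was 0.115. None was called when any library other than 6 weeks replicate 3 was left out. COX5A, a subunit of cytochrome oxidase, was at 165.7, 260.8 and 387.0 FPKM and then at 396.7, 333.7 and 350.8 FPKM (0.49, SE 0.25, adjusted p = 0.35). CHCHD10, a mitochondrial protein of the space between the membranes and not on that list, was called. It was at 41.4, 38.2 and 47.9 FPKM and then at 63.1, 81.2 and 76.0 FPKM, a rise of 0.77 (SE 0.13, adjusted p = 0.042), far under its day 1 mean of 353.4 FPKM.

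The called gene with the largest fall was an unnamed locus with the annotation of a mitochondrial protein. LOC100346169, annotated as a succinate dehydrogenase cytochrome b small subunit, was at 25.2, 20.7 and 62.8 FPKM at 6 weeks, at 1.04 FPKM in 1 library of 12 weeks, and listed at 0 in the other 2. Its log2 difference was −4.70 (SE 0.44, adjusted p = 0.00214). SDHD, the named gene of that subunit, was at 70.8, 99.5 and 118.5 FPKM and then at 173.4, 162.3 and 144.6 FPKM (0.76, SE 0.19, adjusted p = 0.127). The sum of both was 96.0, 120.2 and 181.3 FPKM at 6 weeks and 174.4, 162.3 and 144.6 FPKM at 12 weeks, which overlap. Reads of near-identical copies can be split between them in counting, so the fall of LOC100346169 is uncertain as a change of a separate gene. The sum was chosen after the values were seen.

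**Figure D3:**
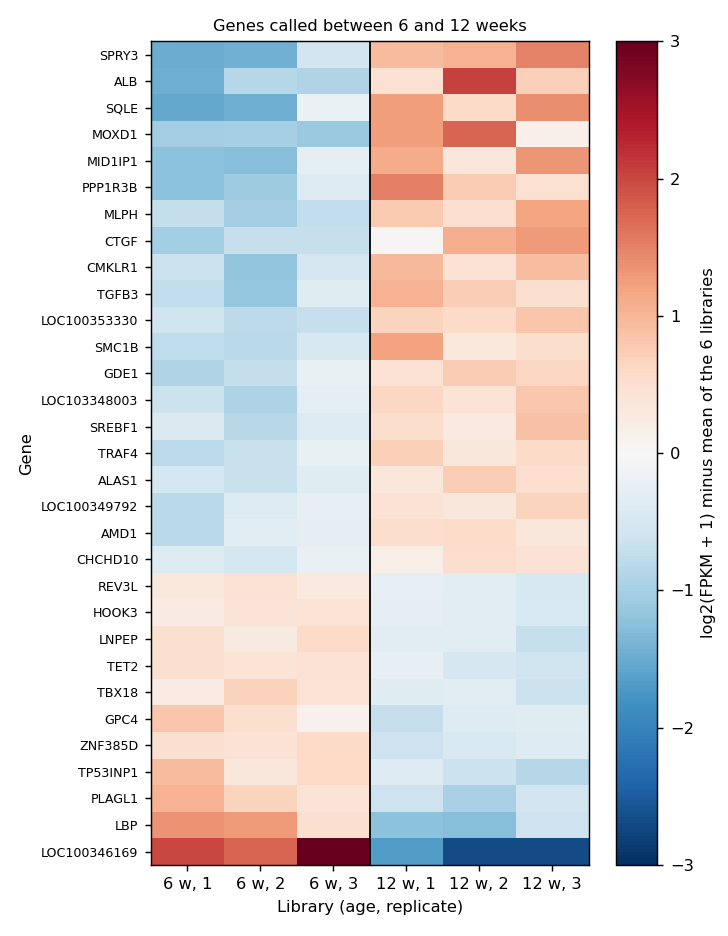
All but 1 of the 32 called genes (rows) in the 6 libraries (columns, w for weeks), as log2(FPKM + 1) minus the mean of the 6 libraries of the gene, red above and blue below that mean and clipped at 3 in both directions. Genes higher at 12 weeks stand above those lower, the ages separate in every row, and 6 weeks replicate 3 is paler than its age mates for genes such as SQLE and MID1IP1. The rows were chosen for an age difference in these same libraries, so their separation is no separate support.

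Several called genes encode signalling proteins, receptors or secreted factors. SPRY3, of the sprouty family that restrains growth factor receptor signalling, was at 1.43, 1.54 and 3.61 FPKM at 6 weeks and at 12.3, 13.2 and 18.2 FPKM at 12 weeks. It rose by 2.33 (SE 0.24, adjusted p = 0.00393), and was at a mean of 0.28 FPKM at day 1 and 1.07 FPKM at 3 weeks. CMKLR1, the receptor of the adipokine chemerin, was at 9.07, 5.98 and 10.1 FPKM and then at 29.9, 20.1 and 28.9 FPKM (1.55, SE 0.22, adjusted p = 0.0251). All 12 weeks values of both genes lay well above the highest 6 weeks value, and SPRY3 stayed called whichever library was left out.

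TGFB3, a ligand of the TGF-beta family, was at 12.1, 8.84 and 16.1 FPKM and then at 44.4, 35.4 and 29.6 FPKM (1.51, SE 0.26, adjusted p = 0.044). CTGF, a matrix-associated protein that TGF-beta induces in many cells, was at 14.9, 18.8 and 18.9 FPKM and then at 32.0, 67.7 and 76.4 FPKM (1.60, SE 0.28, adjusted p = 0.0482). TGFB3 was the only called member of 34 tested genes of Wnt and TGF-beta signalling, while 0.172% of all genes were called higher. Of the 34, 10 had a positive difference, and the median was −0.311. The receptor TGFBR1 was at 33.8, 47.2 and 43.9 FPKM and then at 73.2, 77.8 and 65.0 FPKM (0.79, SE 0.17, adjusted p = 0.0948), and the ligand TGFB1 at 20.7, 20.6 and 16.1 FPKM and then at 12.6, 12.9 and 21.7 FPKM (−0.30, adjusted p = 0.601). In this list 2 genes were called higher and 2 lower without 6 weeks replicate 3, against 2.61% and 1.92% of all genes. None was called when any other library was left out. TRAF4, an adaptor of receptor signalling, rose by 1.10 (SE 0.20, adjusted p = 0.04996), from 9.14, 10.0 and 14.0 FPKM to 27.6, 21.1 and 24.9 FPKM.

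Further called genes that rose act in metabolism. PPP1R3B, which targets a phosphatase to glycogen, was at 8.23, 9.39 and 15.3 FPKM and then at 61.3, 35.6 and 28.8 FPKM (1.81, SE 0.31, adjusted p = 0.042). ALAS1, the first enzyme of haem synthesis, was at 34.5, 31.3 and 38.6 FPKM and then at 63.8, 84.3 and 71.6 FPKM (1.05, SE 0.17, adjusted p = 0.0369). AMD1, an enzyme of polyamine synthesis, was at 14.0, 20.0 and 20.5 FPKM and then at 37.2, 37.9 and 32.3 FPKM (0.96, SE 0.17, adjusted p = 0.0482). In all 3 genes the ages were clear of each other. GDE1, a phosphodiesterase of glycerophospholipids, rose by 1.22 from 11.0, 12.7 and 18.02 FPKM to 29.2, 36.8 and 33.3 FPKM. MOXD1, a copper monooxygenase, rose by 2.10 from 4.86, 5.13 and 4.66 FPKM to 28.0, 39.7 and 12.5 FPKM. The 12 weeks libraries of MOXD1 differed widely, and GDE1 was more even.

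The remaining called genes that rose were mostly low. MLPH, melanophilin, which links organelles to myosin, was at 1.01, 0.60 and 0.99 FPKM and then at 4.70, 3.66 and 6.52 FPKM (1.65, SE 0.19, adjusted p = 0.00623), and it stayed called whichever library was left out. ALB, serum albumin, was at 1.23, 2.4 and 2.31 FPKM and then at 7.43, 24.5 and 9.13 FPKM (2.15, SE 0.33, adjusted p = 0.0368). SMC1B, a cohesin subunit known from meiosis, was at 0.03, 0 and 0.25 FPKM and then at 2.99, 1.15 and 1.51 FPKM. On the log2(FPKM + 1) scale the differences of such low genes are understated. The unnamed loci called higher were LOC100353330, annotated as an ATP synthase assembly factor, with a difference of 1.38, LOC103348003, annotated as an inducer of neurite outgrowth regulated by G proteins, with 1.21, and LOC100349792, a beta tubulin-like gene, with 0.97. Tubulins are a family of close copies, and the last value is uncertain for that reason.

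The genes that fell included regulators of transcription and chromatin. LBP, the acute-phase protein that binds bacterial lipopolysaccharide, was at 33.7, 32.1 and 18.1 FPKM at 6 weeks and at 4.83, 4.57 and 7.82 FPKM at 12 weeks, and fell by 2.08 on the log2 scale (SE 0.35, adjusted p = 0.042). TP53INP1, a p53-induced stress protein with a role in autophagy, was at 51.0, 33.3 and 39.9 FPKM and then at 19.8, 16.4 and 13.9 FPKM (−1.25, SE 0.16, adjusted p = 0.0139). PLAGL1, an imprinted zinc finger transcription factor, was at 13.5, 10.1 and 8.33 FPKM and then at 3.58, 2.59 and 3.81 FPKM (−1.42, SE 0.20, adjusted p = 0.0251). In these 3 genes the ages were well separated, with 6 weeks replicate 3 the lowest of its age for LBP and PLAGL1.

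TET2, which oxidises methylated cytosine in DNA, was at 14.3, 13.5 and 13.7 FPKM and then at 8.13, 6.70 and 6.22 FPKM (−0.90, SE 0.16, adjusted p = 0.0484). TBX18, a T-box transcription factor, was at 7.08, 9.97 and 7.95 FPKM and then at 4.31, 4.38 and 3.31 FPKM (−0.90, SE 0.15, adjusted p = 0.042). GPC4, a glypican that fat cells release, was at 10.2, 7.87 and 5.94 FPKM and then at 2.95, 3.89 and 3.95 FPKM (−0.95, SE 0.17, adjusted p = 0.0482). These were changes within a narrow and low range. LNPEP, an aminopeptidase that travels with the insulin-responsive glucose transporter, was at 21.8, 18.7 and 23.4 FPKM and then at 12.2, 11.9 and 9.13 FPKM (−0.89, SE 0.14, adjusted p = 0.035). The zinc finger gene ZNF385D (−0.98), the microtubule adaptor HOOK3 (−0.70) and REV3L (−0.68), the catalytic subunit of DNA polymerase zeta, also fell.

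Matrix genes all had negative differences, but none was called. Over 41 tested genes of the extracellular matrix, 27 had an unadjusted p under 0.05 downward and none upward, against 8.71% and 7.22% of all genes. Their median was −0.699, it stayed between −0.925 and −0.562 when any 1 library was left out, and after median ratio scaling 1 of the 41 was positive. When 6 weeks replicate 3 was left out, 12 were called lower, against 1.92% of all genes, and when any other library was left out none was. The summed FPKM of 43 genes of the list was 35140, 27670 and 17450 at 6 weeks, and 13010, 12570 and 21790 at 12 weeks. The ages overlapped in this sum, with replicate 3 of each age nearer to the other age, and at day 1 the sums ran from 5597 to 6972.

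The fibrillar collagens were among the most abundant of these genes. COL1A1 was at 5806, 4293 and 2370 FPKM at 6 weeks and at 1217, 997.4 and 3554 FPKM at 12 weeks (−1.26, SE 0.46, adjusted p = 0.226). COL3A1 was at 7317, 5411 and 3444 FPKM and then at 2250, 2012 and 3921 FPKM (−0.98, SE 0.36, adjusted p = 0.229). In both, 12 weeks replicate 3 exceeded 6 weeks replicate 3. POSTN, periostin, a matrix protein of growing and healing connective tissue, was at 717.5, 503.7 and 185.8 FPKM and then at 76.3, 80.9 and 199.3 FPKM (−1.91, SE 0.51, adjusted p = 0.142). ELN, elastin, was at 72.1, 36.7 and 24.9 FPKM and then at 10.6, 12.6 and 21.5 FPKM (−1.45, SE 0.43, adjusted p = 0.159), the only gene of these 4 without overlap. Among 26 tested matrix-remodelling genes, with a median of −0.523, none was called. MMP14, a membrane protease that cuts collagen, was at 103.5, 83.1 and 31.1 FPKM and then at 19.3, 18.3 and 34.7 FPKM (−1.44, SE 0.39, adjusted p = 0.144). In that list 3 genes were called lower without 6 weeks replicate 3, against 1.92% of all genes, and none when any other library was left out.

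**Figure D4:**
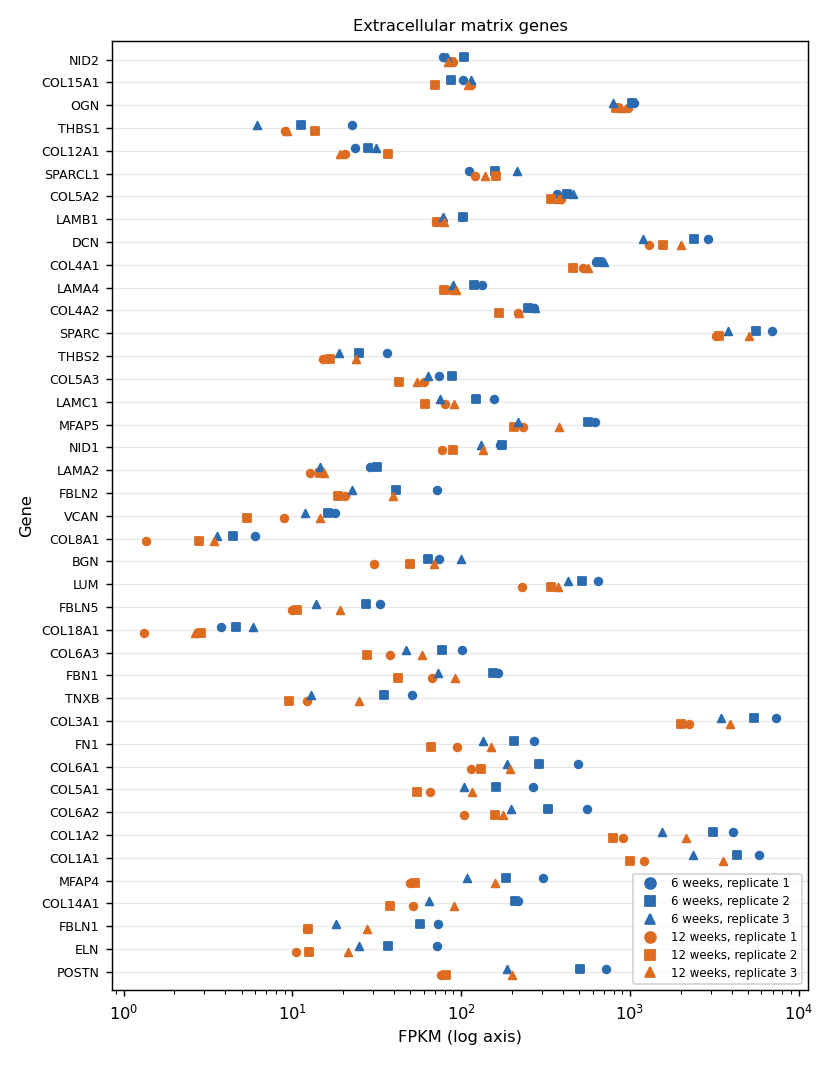
FPKM (log axis) of each tested extracellular matrix gene in the 3 libraries of 6 weeks (blue) and the 3 of 12 weeks (orange), with marker shape giving the replicate, ordered by log2 difference. For genes at the bottom, such as POSTN, ELN and COL1A1, replicates 1 and 2 of 6 weeks lie to the right and replicates 1 and 2 of 12 weeks to the left, while both replicates 3 (triangles) lie between them.

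Genes of growth control and of fat progenitors had some of the widest differences, and again none was called with all libraries. DLK1, a surface protein of preadipocytes that holds back their maturation, was at 144.4, 118.0 and 15.1 FPKM at 6 weeks and at 8.88, 0.75 and 20.2 FPKM at 12 weeks (−3.19, SE 0.94, adjusted p = 0.159). GPC3, a glypican that restrains growth, was at 15.3, 18.04 and 5.17 FPKM and then at 1.52, 2.88 and 2.18 FPKM (−1.98, SE 0.39, adjusted p = 0.0652). IGFBP5, a binding protein of insulin-like growth factors, was at 746.1, 462.6 and 241.2 FPKM and then at 100.2, 98.2 and 219.2 FPKM (−1.75, SE 0.38, adjusted p = 0.0915). The hormone IGF1 was nearly level, with 227.8, 250.8 and 249.1 FPKM and then 209.7, 189.1 and 243.0 FPKM (−0.19, adjusted p = 0.548). Over 23 tested genes of growth and steroid hormone signalling, 8 were lower and 1 was higher at an unadjusted p under 0.05, against 8.71% and 7.22% of all genes. Without 6 weeks replicate 3, 5 were called lower and 1 higher, against 1.92% and 2.61% of all genes. In 22 tested progenitor genes the median was −0.436 with 2 positive differences, and without that library 4 were called lower, against the same 1.92%. PDGFRA, the defining receptor of these cells, was at 25.6, 20.0 and 11.2 FPKM and then at 9.91, 7.99 and 16.0 FPKM (−0.68, adjusted p = 0.296). No gene of the growth or progenitor list was called when a library other than 6 weeks replicate 3 was left out. The summed level of the 22 progenitor markers ran from 1690 to 2940 FPKM at 6 weeks and from 1580 to 1940 FPKM at 12 weeks, and its part in the matrix values was not tested.

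**Figure D5:**
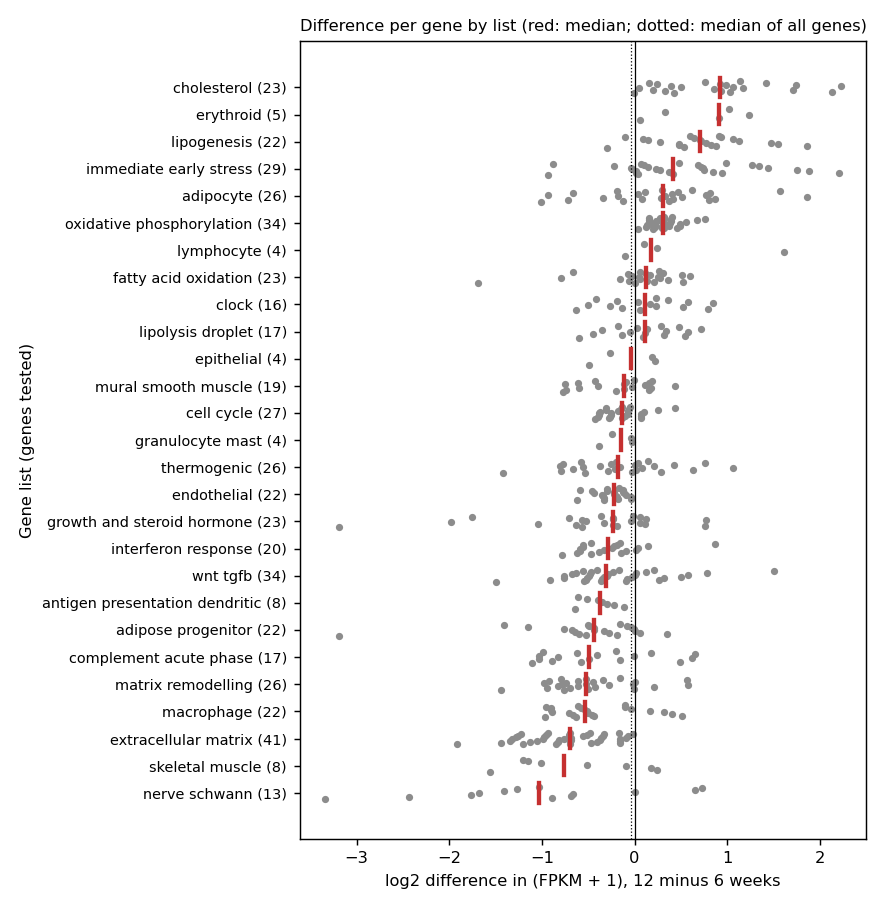
Log2 difference in (FPKM + 1), 12 minus 6 weeks, of every tested gene (grey points) in each of the 27 gene lists, with the number tested in parentheses, the list median in red and the median of all genes (−0.033) as a dotted line. The cholesterol list lies almost wholly to the right of 0 with a median of 0.925 and the extracellular matrix list to the left with −0.699, while most other medians lie within 0.5 of 0.

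Markers of other cells were checked over whole lists. None of the 22 tested macrophage genes was called, with a median of −0.534, and 6 were called lower without 6 weeks replicate 3, against 1.92% of all genes. None was called when any other library was left out. CSF1R, the receptor of the macrophage growth factor, was at 41.8, 30.4 and 10.3 FPKM and then at 9.84, 9.04 and 20.3 FPKM (−0.90, adjusted p = 0.327). Both replicates 3 again lay between their ages. The summed level of 27 macrophage markers, with LPL left out, ran from 557 to 803 FPKM at 6 weeks and from 534 to 713 FPKM at 12 weeks. All 28 genes of the list summed to 4510, 5250 and 7089 FPKM and then to 7918, 6418 and 6665 FPKM. All 22 tested endothelial genes had negative differences as deposited, with a median of −0.223, but 2 were positive after median ratio scaling. None was called, and 1 was called lower without 6 weeks replicate 3, against 1.92% of all genes. PECAM1, which joins endothelial cells, was at 95.0, 118.9 and 124.8 FPKM and then at 66.0, 92.7 and 87.0 FPKM (−0.46, adjusted p = 0.274), and the summed endothelial level of 23 markers ran from 1010 to 1230 FPKM and then from 754 to 993 FPKM without overlap.

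Nerve and Schwann cell genes had the lowest median of the lists, −1.032 over 13 tested, or −0.953 without 6 weeks replicate 3, with no call in either. At an unadjusted p under 0.05, 10 were lower and 2 higher, against 8.71% and 7.22% of all genes, and in 9 the values were lower without overlap, against 10.9%. MBP, a myelin protein, was at 6.59, 52.6 and 22.0 FPKM and then at 4.41, 1.06 and 4.30 FPKM (−2.44, SE 0.66, adjusted p = 0.144), with no overlap. The summed level of 19 such markers varied from 212 to 958 FPKM within 6 weeks alone, and from 116 to 239 FPKM at 12 weeks. Skeletal muscle markers summed to 83.9 to 282 FPKM and then to 79.6 to 104 FPKM, the highest value being that of 6 weeks replicate 1, where ACTA1, the actin of skeletal muscle, was at 60.0 FPKM against 4.54 and 0.70 FPKM in its age mates. Erythroid markers summed to 208 to 323 FPKM and then to 342 to 1090 FPKM, and HBB2, a globin, was at 271.9, 206.3 and 175.5 FPKM and then at 294.1, 431.5 and 1027 FPKM (1.24, adjusted p = 0.203). The defining lymphocyte gene CD3E was at most 0.86 FPKM and the epithelial gene EPCAM at most 0.04 FPKM in all 6 libraries. The part of nerve, muscle and blood in the called genes was not tested.

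Genes that respond within minutes to stress and handling varied widely among the libraries of 12 weeks. FOS, the best known of them, was at 21.1, 68.3 and 47.6 FPKM and then at 176.1, 49.5 and 314.8 FPKM (1.75, SE 0.58, adjusted p = 0.197). FOSB was at 1.79, 6.97 and 4.97 FPKM and then at 36.4, 3.64 and 74.0 FPKM (2.2, SE 0.82, adjusted p = 0.238). For both, 12 weeks replicate 2 lay within the range of 6 weeks while the other 2 libraries of its age were several times above it. Of 29 tested immediate early and stress genes none was called, against 0.263% of all genes. Of the 29, 24 were positive and the median was 0.416. At an unadjusted p under 0.05, 9 were higher and 2 lower, against 7.22% and 8.71% of all genes. The proliferation marker MKI67 was at 1.15, 1.66 and 8.40 FPKM and then at 1.93, 1.54 and 2.17 FPKM, so that 6 weeks replicate 3 stood out in this gene as well. None of 27 cell cycle genes was called, and their median of −0.132 became 0.262 without that library. None of the 16 clock, 20 interferon, 17 complement, 19 mural, 17 lipolysis and droplet, and 8 antigen presentation genes tested was called with all libraries. As 0.263% of all genes were called, the lack of calls sets none of these lists apart.

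The widest differences without overlap that missed the threshold were mostly lower at 12 weeks. ANGPTL4, an inhibitor of LPL that rises in fasting, was at 158.3, 36.1 and 15.7 FPKM at 6 weeks and at 6.73, 8.37 and 12.2 FPKM at 12 weeks (−2.23, SE 0.60, adjusted p = 0.142). DEPP1, a stress gene of fasting and FOXO signalling, was at 107.0, 37.2 and 23.1 FPKM and then at 7.12, 7.66 and 8.41 FPKM (−2.41, SE 0.67, adjusted p = 0.147). In both, the 3 libraries of 6 weeks spread several fold and those of 12 weeks lay close together. CHI3L1, a chitinase-like secreted protein, was at 29.3, 47.8 and 37.8 FPKM and then at 15.4, 21.1 and 1.98 FPKM (−1.91, adjusted p = 0.331). In the upward direction PLEKHB2, a membrane-binding protein, was at 1.23, 18.4 and 23.6 FPKM and then at 48.2, 28.0 and 43.4 FPKM (1.96, SE 0.72, adjusted p = 0.232), with 6 weeks replicate 1 far below the rest. FAM180B was at 3.03, 5.56 and 6.95 FPKM and then at 17.97, 29.2 and 15.9 FPKM (1.84, adjusted p = 0.157).

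Genes far from their age mates describe the libraries that move the count. In 6 weeks replicate 3, DLK1 (15.1 FPKM), the antioxidant enzyme GPX3 (67.7 FPKM against 363.6 to 554.6 FPKM) and IGFBP2 (52.2 FPKM against 224.3 to 374.5 FPKM) lay far below the other 2 libraries. RPL39, a ribosomal protein gene of a family with many copies, was at 133.9 FPKM there against 2.35 to 3.16 FPKM, and at 146.0 FPKM in 12 weeks replicate 1 against 1.84 to 6.31 FPKM. In 6 weeks replicate 1, TGFBI, a matrix protein induced by TGF-beta, was at 1404 FPKM against 149.6 to 358.1 FPKM. In 6 weeks replicate 2, the myelin genes PMP2 (46.4 FPKM against 4.83 to 16.1 FPKM) and MBP (52.6 FPKM against 6.59 to 22.0 FPKM) were high. In 12 weeks replicate 1 the chemokine CCL21 was low (0.78 FPKM against 8.54 to 9.25 FPKM), and in 12 weeks replicate 3 COL1A1 and MFAP4, a microfibril protein (158.7 FPKM against 50.05 to 53.1 FPKM), were high. These genes were picked as the farthest of each library, so their presence alone sets no library apart.

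The called genes were set beside the stromal vascular fraction (SVF) of the same depot and ages, the cells left when fat cells are removed, which was normalized in a table of its own. There 1726 of 11630 genes (14.8%) were called between 12 and 6 weeks, 1010 higher (8.68%) and 716 lower (6.16%). Of the 32 genes called in whole fat, 26 were tested in the SVF. Of these, 9 were called in the same direction and 1 in the opposite one, 13 had the same sign without a call and 3 the opposite sign. PLAGL1 fell by 1.91 in the SVF (adjusted p = 0.00027), TET2 by 1.16 (adjusted p = 0.00497) and LNPEP by 1.23 (adjusted p = 0.00681), while MID1IP1 rose by 1.19 (adjusted p = 0.00128). LOC100346169 also fell there, from a mean of 7.47 FPKM to values listed at 0 (adjusted p = 0.0005). For SQLE the SVF difference was 0.32 (adjusted p = 0.499). Of 24 adipocyte genes tested in the SVF, 7 were called higher and 2 lower, against 8.68% and 6.16% of all genes there. The globin HBB2 averaged 173.5 FPKM at 6 weeks and 6274 FPKM at 12 weeks in that fraction. The part of fat cells and blood in the SVF differences was not tested. The difference between whole fat and SVF was not tested, since the tables were normalized separately.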

How the data were processed

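Bulk RNA-seq of 6 libraries of total interscapular fat, 3 at 6 weeks and 3 at 12 weeks, was read from a deposited table of 20183 genes that also held the libraries of day 1 and 3 weeks. Values were FPKM, per the file headers, as the authors deposited them. The submitters' processing notes name HISAT2 2.0.4, Bowtie2 2.2.5, DESeq2 and the build OryCun2.0 with no role for each, and the program and annotation behind the FPKM are not given in the sources used here. The table holds no read counts, so absolute depth is unknown. Relative depth was taken from the steps between low values of pairs of libraries, and 83.3% of library pairs lay within 0.1 (log2) of the joint solution. Symbols came from the SVF table by gene identifier (19625 of 20183 matched), and 774 missing or placeholder symbols from a RefSeq gene table of another assembly, used for names alone. No value columns were left unmapped.

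Values were transformed to log2(FPKM + 1), which understates differences of low genes. Genes that reached an FPKM of 1 in 3 or more of the 6 libraries were tested with limma 3.58.1 in R 4.3.3, with 1 mean per age, all 12 libraries of the table in the fit, and a variance trend. P-values are two-sided, adjusted by Benjamini-Hochberg over all tested genes and called under 0.05. The SVF table of 24 libraries was fitted the same way. The script was tested on simulated data. The 27 gene lists (741 distinct genes, 655 found, 523 tested), the comparison and the rule for named genes were chosen with earlier results of these data known. That rule takes every called gene, the 8 largest rises and falls without overlap at a mean FPKM of at least 10, the 10 most abundant genes, of each list its defining gene and up to 4 members with the largest differences at a mean FPKM of at least 5, and, for libraries that move the count, the 6 genes farthest from their age mates in each direction. Genes named outside it were chosen after their values were seen. Alternatives were other pseudocounts, filters, scalings, moderation and weights, a replicate block, and leaving out each library. Values of some single genes are not reported here.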

Additional observations from a re-analysis of the deposited data

Results flagged for a closer look

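AMD1, an enzyme of polyamine synthesis, differed in opposite directions in whole fat and in the SVF, whose cells are a part of whole fat. In whole fat it rose by 0.96 on the log2 scale from 6 to 12 weeks (adjusted p = 0.0482, limma), with all 3 libraries of 12 weeks above all 3 of 6 weeks. In the SVF it fell by 1.11 (adjusted p = 0.00561, limma), from a mean of 71.9 FPKM to 32.9 FPKM. The globin HBB2 rose in the SVF from a mean of 173.5 FPKM to 6274 FPKM. The part of such a change in the cell mix in the AMD1 values was not tested. ADORA1 averaged 1336 FPKM in the SVF at 6 weeks and 15280 FPKM at 12 weeks, and its part in the FPKM scale of AMD1 was not tested. The difference between whole fat and SVF was not tested, because the tables were normalized separately. In whole fat the call held in 1 of the 6 comparisons that each left out 1 library.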

How the results depend on the processing

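The count of 32 called genes in whole fat depended on the libraries and settings used, and none of the 32 reversed its direction under any alternative run. It was 9 with a pseudocount of 0.1, 19 with no filter on low FPKM and 49 after median ratio scaling (75.5% higher, against 65.6% in the reported count). It was 36 (52.8% higher) after ADORA1 and LOC100009266 were left out and each library was scaled to the same FPKM sum. ADORA1 averaged 35000 FPKM at day 1 but 4309 FPKM in the 6 libraries, where FABP4 averaged 21550 FPKM. The count was 3 with only the 2 ages in the fit and 4037 with array quality weights. Those weights did not converge and gave 6 weeks replicate 2 a weight of 24.8. Leaving out each library in turn gave 5 to 552. In the SVF the count of 1726 was 578 with a minimum log2 difference of 1, 5612 with array quality weights, and 851 to 1285 with a library left out. The share of higher genes there moved from 58.5% to 43.7% after median ratio scaling and to 41.1% after upper quartile scaling. It was 26.6% with ADORA1 and LOC100009266 left out and equal FPKM sums. With the replicate number as a block the counts were 14 in whole fat and 1461 in the SVF. The numbers share no stated origin, and same-numbered libraries of the ages correlated at −0.277, −0.005 and −0.355, so no pairing was assumed. The cause of these moves was not tested.

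Of the 32 genes, LOC100346169, SPRY3 and MLPH kept their call in all 6 comparisons that left out a library. Read counts were not used here, so the limit that depth sets on low genes is unknown.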
